A study of Mus musculus with 26 samples.

Results

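The mir-135 family of the mouse was followed through small RNA sequencing of the hippocampus, dorsal (dHC) and ventral (vHC), after acute swim stress. Its members were the 3 miRNA entries of the count table that carried the names mmu-mir-135a-1, mmu-mir-135a-2 and mmu-mir-135b (here without the species prefix), out of 1054 miRNA entries and 1360 entries in all. All 3 passed the filter on low counts, together with 463 entries in total. The rule that picked them used their names and no measured value, though earlier results of these data were known.

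MicroRNAs are short RNAs that pair with messenger RNAs, mainly through the seed at bases 2 to 8, and lower their translation and stability. Each is cut from a hairpin whose arms give a 5p and a 3p mature form. The miR-135 family is known for targeting the messenger RNAs of the serotonin transporter Slc6a4 and of the serotonin receptor Htr1a, and it has been studied in serotonin neurons and in responses to stress and antidepressants. Neither the transcripts of these targets nor raphe tissue, where serotonin neurons lie, were analysed here.

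The mice were C57BL/6J males, 2 to 3 months old, and both hemispheres were taken. Control mice stayed in the homecage, and swim mice swam for 6 min in water of 18 °C and were killed 45 min after the start of the swim. There were 26 libraries, with 14 from vHC (8 control, 6 swim) and 12 from dHC (6 control, 6 swim), spread over 3 dated blocks that are called block 1, 2 and 3 in order of date. The labels do not tie dHC and vHC libraries to a mouse, so the p-values measure the spread between libraries, and the groups are tissue pieces that hold many cell types.

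The summed miRNA count lay between 465387 and 4819724 per library, with the lowest in a control dHC library of block 2. Neuronal miRNAs were abundant in every library, with mir-124-1 between 11490 and 24880 CPM (counts scaled to a common library total with factors from the trimmed mean of M values, TMM). The 3 mir-135 entries together took between 0.0935% and 0.466% of the miRNA counts, with a median of 0.184%.

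Mature sequences of the family are shown because identical mature forms cannot be told apart by their reads. They were taken from RefSeq (GRCm38.p6), written 5′ to 3′ with the seed in capitals. The 5p arm of the mir-135a hairpins is 1 sequence made from both copies, while each hairpin has a 3p arm of its own. The family also holds mmu-miR-135b-5p, and the 5p arms of mir-135a and mir-135b were not compared here.
mmu-miR-135a-5p: uAUGGCUUuuuauuccuauguga
mmu-miR-135a-1-3p: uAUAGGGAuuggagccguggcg
mmu-miR-135a-2-3p: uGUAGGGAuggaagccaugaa
mmu-miR-135b-3p: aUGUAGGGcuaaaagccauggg

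RefSeq places miR-135a-5p at chr9:106154140-106154162 on the plus strand and at chr10:92072141-92072163 on the minus strand. The 3p arms lie at chr9:106154179-106154200 (plus), chr10:92072104-92072124 (minus) and chr1:132198142-132198163 (plus) for mir-135a-1, mir-135a-2 and mir-135b. Aligned pairwise, the 3p arms of mir-135a-1 and mir-135a-2 had 15 identical bases and 6 mismatches. Those of mir-135b and mir-135a-2 had 16 identical bases and 5 mismatches. The 3p seeds differed between the 3 hairpins.

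The hairpins lie on 3 chromosomes, and each is inside a longer gene of the GENCODE annotation. Mir135a-1 (chr9:106154124-106154213, plus strand) is intronic in the antisense gene D030055H07Rik on the same strand, and it faces a UTR of Glyctk on the opposite strand. Mir135a-2 (chr10:92072086-92072185, minus strand) is in an intron of Rmst, a long noncoding RNA. Mir135b (chr1:132198088-132198184, plus strand) is in an intron of Lemd1. The longest run of bases shared by the mir-135a hairpins was 24 bases, and mir-135b shared runs of 14 bases with mir-135a-1 and 13 bases with mir-135a-2.

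The counts themselves showed how closely the entries were tied. Counts ran from 146 to 4230 for mir-135a-1, from 160 to 4286 for mir-135a-2 and from 137 to 3394 for mir-135b. In 26 of 26 libraries mir-135a-2 was the highest and mir-135b the lowest of the 3. The excess of mir-135a-2 over mir-135a-1 was only 1.24% to 15.1% of the mir-135a-1 count, and mir-135b was 2.82% to 19.8% below mir-135a-1.

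All 78 counts were multiples of 1/6 within a tolerance of 0.015, and 63 of them were not multiples of 0.5. The differences between entries of a library were nevertheless multiples of 0.5 in 26 of 26 libraries, so that the odd fractions were common to the 3 entries. The entries thus hold reads in common and are not independent measurements, and the number of reads that mir-135b shares with mir-135a is not given by the table. An excess of one entry over another rests on the reads that differ between them.

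Of the differences tested, those between blocks were the largest for the family. In block 1 mir-135a-1 lay between 804 and 1652 CPM, with a mean of 1103 ± 260 (SD, n = 10). It lay between 319 and 639 CPM in block 2, with a mean of 494 ± 121 (SD, n = 8), and between 329 and 617 CPM in block 3, with a mean of 474 ± 89.5 (SD, n = 8). Each block 1 library was above each library of blocks 2 and 3, while blocks 2 and 3 overlapped.

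The same separation held for the other entries. mir-135a-2 lay between 814 and 1674 CPM in block 1, between 362 and 699 CPM in block 2 and between 355 and 664 CPM in block 3. mir-135b lay between 724 and 1326 CPM, between 310 and 570 CPM, and between 312 and 554 CPM in the same order. For both entries the lowest block 1 library exceeded the highest library of the later blocks.

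**Figure D1:**
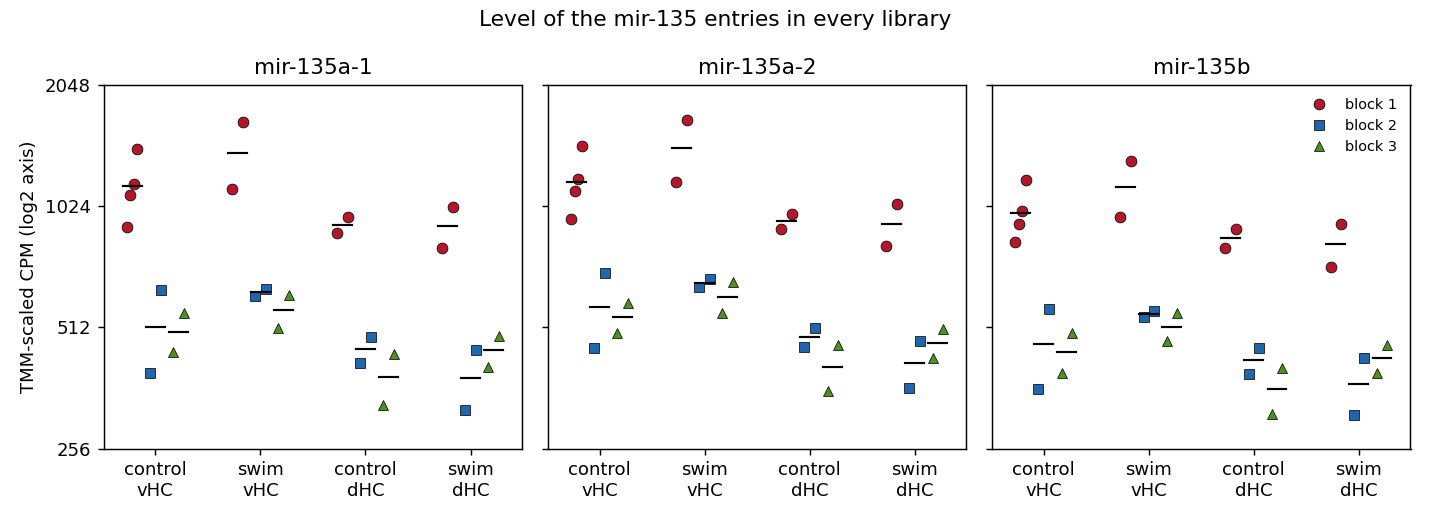
Level of mir-135a-1, mir-135a-2 and mir-135b in each of the 26 libraries, as TMM-scaled CPM on a log2 axis. Points are libraries with the block as colour and shape, and black lines are the means of a block within a group. The block 1 libraries sit above all others in each panel, and swim dHC sits below swim vHC within each block.

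Fitted over region and stress together, block 2 was lower than block 1 by a log2 difference of -1.14 for mir-135a-1, -1.06 for mir-135a-2 and -1.07 for mir-135b. Block 3 was lower than block 1 by -1.19, -1.13 and -1.12 on the log2 scale in the same order. Each entry had an adjusted p of 7.61e-10 for block (quasi-likelihood test of edgeR, Benjamini-Hochberg adjusted). The test called 246 of 463 miRNA entries, a background of 53.1%, and the family held ranks 2, 3 and 4 by p. The medians over all 463 entries were -0.05 and -0.08 on the log2 scale.

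The family was not the lowest by size. mir-135a-1 ranked 24 of 463 from the lowest log2 difference of block 2 from block 1, and 13 of 463 for block 3. The ranks of mir-135a-2 were 34 and 25, and those of mir-135b 31 and 28. The blocks are dates in the labels, and library preparation was done in 3 batches by the study's methods. No source used here says that these batches are the blocks. Which of mice, dissection, library preparation or date the block difference follows cannot be told.

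Some markers of each cell type list were also called for block, where 53.1% of all entries were called. The test called 3 of 8 neuronal miRNAs, which were the copies mir-124-1, mir-124-2 and mir-124-3. It called 3 of 7 of the choroid plexus and ciliated cell list and 3 of 4 of the blood list. It called 1 of 3 each of the immune, the oligodendrocyte, and the endothelial and mural lists. Only the blood list was called in a larger share than all entries. The summed level of the choroid plexus and ciliated cell list was 1760 to 5564 CPM in block 1, 2651 to 3839 CPM in block 2 and 2315 to 3455 CPM in block 3. That of the blood list was 678 to 998, 659 to 965 and 645 to 885 CPM in the same order of blocks.

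The neuronal list summed to 179560 to 254930, 162520 to 328930 and 156390 to 228120 CPM in blocks 1, 2 and 3. The oligodendrocyte list summed to 3321 to 6941, 3879 to 7617 and 4049 to 6293 CPM, and the immune list to 534 to 1274, 703 to 976 and 802 to 1186 CPM. The endothelial and mural list summed to 12829 to 30446, 17211 to 24077 and 22170 to 30016 CPM. The blocks overlapped in each of these sums, and the part of these cell types in the block difference of the family was not tested.

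**Figure D2:**
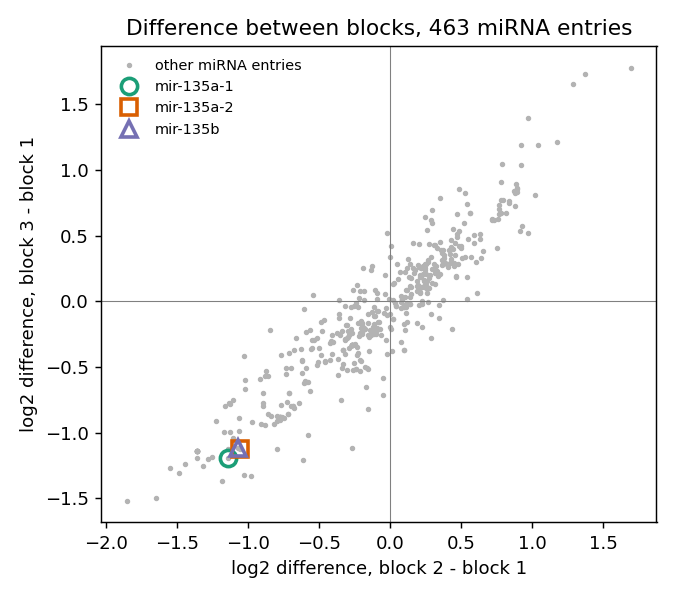
Log2 difference from block 1 for 463 miRNA entries, with block 2 on the horizontal axis and block 3 on the vertical axis. Grey points are the other entries, and the 3 mir-135 entries lie together at the low end of both axes, between -1.06 and -1.14 for block 2 and between -1.12 and -1.19 for block 3.

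The excess of mir-135a-2 over mir-135a-1 also differed in size between blocks. It was 1.24% to 4.44% of the mir-135a-1 count in block 1, 5.13% to 15.1% in block 2 and 3.96% to 11.7% in block 3. Blocks 1 and 2 did not overlap. These ratios are a description with no test.

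Acute stress was the question of the study, and no member passed the test in either region. In vHC, mir-135a-1 was at 395, 772 and 1420 CPM (lowest, median, highest) in the control libraries and at 510, 628 and 1652 CPM in the swim libraries. In dHC it was at 329, 463 and 963 CPM in the control libraries and at 319, 469 and 1019 CPM in the swim libraries. The control and swim ranges overlapped almost wholly in both regions.

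mir-135a-2 had means of 869 ± 365 CPM in control vHC (SD, n = 8), 898 ± 439 CPM in swim vHC (SD, n = 6), 611 ± 260 CPM in control dHC (SD, n = 6) and 604 ± 264 CPM in swim dHC (SD, n = 6). mir-135b had means of 721 ± 307, 737 ± 337, 545 ± 243 and 541 ± 234 CPM in the same order of groups and numbers of libraries. These means and SDs run over all blocks, and block 1, where the family was high, held 4 of 8 control vHC libraries, 2 of 6 swim vHC libraries and 2 of 6 libraries of each dHC group.

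The fitted swim against control difference in vHC was a log2 fold change of 0.02 for mir-135a-1, with a standard error of 0.12 and a 95% interval from -0.23 to 0.27. For mir-135a-2 it was 0.0086, with an interval from -0.23 to 0.24, and for mir-135b 0.0040, with an interval from -0.24 to 0.25. Their adjusted p (edgeR) were 0.993 or above. In vHC 0 of 463 miRNA entries were called, a background of 0%, with 34 at an unadjusted p under 0.05, and DESeq2 called 0 as well.

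In dHC the log2 fold changes were 0.07 for mir-135a-1 (interval -0.20 to 0.33), 0.06 for mir-135a-2 (interval -0.19 to 0.32) and 0.07 for mir-135b (interval -0.19 to 0.33). Each adjusted p was 0.999 (edgeR). Here too 0 of 463 entries were called, a background of 0%, with 17 at an unadjusted p under 0.05 and 0 called by DESeq2. The intervals of both regions belong to the fit with surrogate variables described below and do not cover the choice of covariates.

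The test for stress in either region gave adjusted p of 0.946, 0.950 and 0.942 (edgeR) for mir-135a-1, mir-135a-2 and mir-135b. It called 0 of 463 entries, a background of 0%, with 16 at an unadjusted p under 0.05 and 0 called by DESeq2. The interaction, the stress difference in dHC minus that in vHC, was 0.05, 0.05 and 0.07 on the log2 scale, with adjusted p of 0.972, 0.954 and 0.954 (edgeR). It called 0 of 463 entries, a background of 0%, with 23 at an unadjusted p under 0.05 and 0 called by DESeq2.

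These fits carried 2 surrogate variables, as the study's methods did, of which the first was tied to block (72.7% of its variance) and the second to region (91.1%). With block in their place, the stress difference in vHC was 0.25 for mir-135a-1, 0.22 for mir-135a-2 and 0.22 for mir-135b on the log2 scale, with adjusted p between 0.490 and 0.495 (edgeR). Within blocks 1, 2 and 3 the swim mean of mir-135a-1 in vHC was higher by 0.27, 0.32 and 0.18 on the log2 scale, that of mir-135a-2 by 0.27, 0.23 and 0.17, and that of mir-135b by 0.21, 0.29 and 0.21. The direction was the same in the 3 blocks, and the control and swim libraries overlapped in each. With labels exchanged only within blocks, the exact permutation p was 0.100, 0.117 and 0.106 (two-sided). In dHC the differences of mir-135a-1 were -0.02, -0.25 and 0.23, with no common direction.

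The regions were compared within control and within swim mice. In swim mice every dHC library of a block was below every vHC library of that block, for each of the 3 entries. mir-135a-1 was at 804 and 1019 CPM in dHC against 1130 and 1652 CPM in vHC in block 1. It was at 319 and 450 CPM against 612 and 639 CPM in block 2, and at 409 and 489 CPM against 510 and 617 CPM in block 3.

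With block in the fit, dHC was lower than vHC in swim mice by a log2 fold change of -0.54 for mir-135a-1 (standard error 0.14, adjusted p = 0.00461), -0.55 for mir-135a-2 (0.13, adjusted p = 0.00234) and -0.43 for mir-135b (0.13, adjusted p = 0.0154), all from edgeR. So 3 of 3 entries fell, where 94 of 463 miRNA entries were called, a background of 20.3%, and 12.7% were called lower. The members share reads, so that the 3 calls are not 3 separate findings. The median over all entries was -0.00019 on the log2 scale.

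The calls rested on the account of block. With neither block nor surrogate variables, adjusted p were between 0.314 and 0.468 (edgeR), and an exact permutation test of log2 CPM across blocks gave p between 0.147 and 0.216 (two-sided). With labels exchanged only within blocks, the mean within-block differences were -0.55, -0.55 and -0.44 on the log2 scale. Each exact permutation p was 0.00926 before adjustment, the smallest that 216 relabellings can give, and 0.037 adjusted over 4 comparisons. With 2 surrogate variables in place of block, the sign turned to 0.17 on the log2 scale for each entry (adjusted p 0.793 to 0.808, edgeR), in a fit whose second variable shared 91.1% of its variance with region.

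In control mice the same direction was seen and the calls were not reached. mir-135a-1 was at 879 and 963 CPM in dHC against 910 to 1420 CPM in vHC in block 1. It was at 419 and 485 CPM against 395 and 633 CPM in block 2, and at 329 and 441 CPM against 445 and 555 CPM in block 3. The regions overlapped in blocks 1 and 2 and were apart in block 3.

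The control log2 fold changes of dHC against vHC were -0.29 for mir-135a-1 (standard error 0.13, adjusted p = 0.0988), -0.32 for mir-135a-2 (0.12, adjusted p = 0.0528) and -0.22 for mir-135b (0.12, adjusted p = 0.190), all from edgeR. So 0 of 3 members passed, where 104 of 463 entries were called, a background of 22.5%, and 14.7% were called lower. mir-135a-2 passed with unrounded counts (adjusted p = 0.0486, edgeR) and without control vHC library 1 (adjusted p = 0.0202) or 23 (adjusted p = 0.0217). It also passed without swim vHC library 5 (0.0488), swim dHC library 6 (0.0444) or swim dHC library 28 (0.0495), as adjusted p of edgeR. mir-135a-1 passed without control vHC library 23 (adjusted p = 0.0455). The interaction above is the test of whether the region difference itself differed between control and swim mice, and it was not passed. With block in place of surrogate variables the interaction was -0.25, -0.23 and -0.21 on the log2 scale, at an adjusted p of 0.834 to 0.848 (edgeR).

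**Figure D3:**
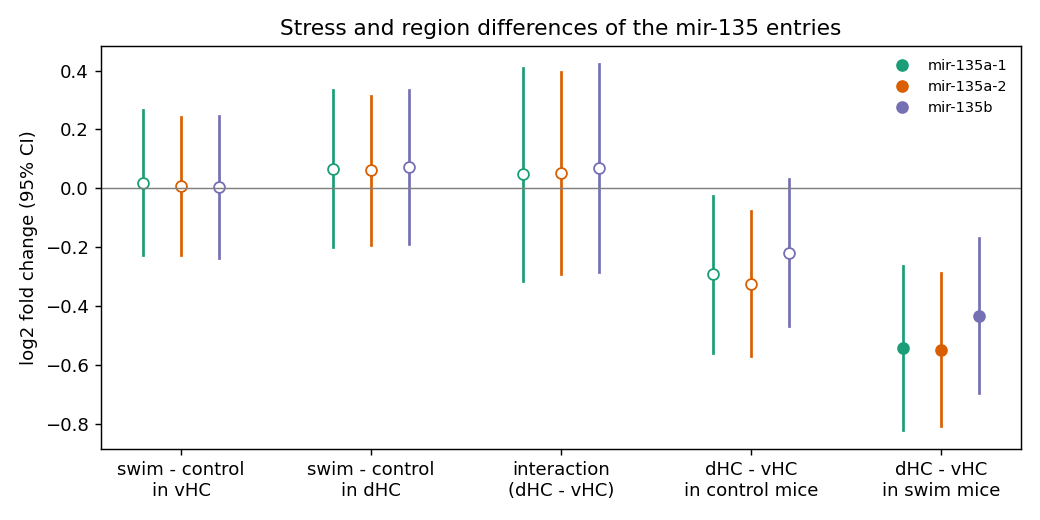
Fitted log2 fold changes of the 3 mir-135 entries with 95% intervals, for swim against control in vHC and dHC, the interaction, and dHC against vHC in control and swim mice. Filled points have an adjusted p under 0.05. The stress and interaction intervals all span 0, and the 3 filled points are those of region in swim mice, at -0.54, -0.55 and -0.43. Stress and interaction come from the fit with surrogate variables and region from the fit with block, so they do not add up. With block, the interaction was -0.25 for mir-135a-1, -0.23 for mir-135a-2 and -0.21 for mir-135b, opposite in sign to the points shown.

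Some markers of other cell types were called for region. Of all 463 entries, 7.78% were called higher and 14.7% lower in dHC in control mice, and 7.56% and 12.7% in swim mice. All 3 oligodendrocyte miRNAs (mir-219a-1, mir-219a-2, mir-338) were higher in dHC in both comparisons, by 0.47 to 0.99 on the log2 scale in control mice and 0.36 to 0.97 in swim mice. Their summed level was 3321 to 4939 CPM in control vHC, 3638 to 4714 CPM in swim vHC, 4329 to 7617 CPM in control dHC and 4579 to 6941 CPM in swim dHC. Among 7 choroid plexus and ciliated cell miRNAs tested, 3 were higher and 3 lower in dHC in control mice, and 1 higher and 3 lower in swim mice.

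The summed level of the choroid plexus and ciliated cell list was 2300 to 2980 CPM in control vHC, 2460 to 2949 CPM in swim vHC, 2324 to 5564 CPM in control dHC and 1760 to 3933 CPM in swim dHC. Its markers mir-449b and mir-449c were at 0 in at least 1 library and never above 0.946 CPM. Of the 4 blood miRNAs, 2 were lower in dHC in control mice and 1 in swim mice, and the blood list summed to 781 to 998, 749 to 903, 645 to 951 and 659 to 885 CPM in the same order of groups. The lists for neurons, immune cells, and endothelial and mural cells had 0 calls for region.

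The part of these cell types in the region difference of the family was not tested. In tissue pieces, fewer cells of a type and less RNA per cell cannot be told apart.

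The ratio of the entries within a library does not depend on how libraries are scaled, and it separated the regions. Reads held in common enter both counts, so the size of the ratio does not measure the change in the reads that differ. The mir-135b count was below that of mir-135a-1 by 9 in control dHC library 24 and by 836 in swim vHC library 5. The mir-135b count divided by the summed mir-135a-1 and mir-135a-2 counts was 0.415, 0.423 and 0.449 (lowest, median, highest) in control vHC and 0.399, 0.430 and 0.444 in swim vHC. It was 0.448, 0.455 and 0.462 in control dHC and 0.447, 0.460 and 0.472 in swim dHC. Among swim mice every dHC library was above every vHC library, and among control mice only vHC library 1, at 0.449, reached into the dHC range.

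The mean ratio was 0.426 ± 0.011 in control vHC (SD, n = 8), 0.426 ± 0.016 in swim vHC (SD, n = 6), 0.454 ± 0.0052 in control dHC (SD, n = 6) and 0.459 ± 0.0097 in swim dHC (SD, n = 6). dHC was higher by a log2 difference of 0.09 in control mice (exact permutation test, two-sided, p = 0.00133) and 0.11 in swim mice (p = 0.00216, exact, the smallest it can give). Adjusted over the 4 comparisons of the ratio, both exact permutation p were 0.00433. Within blocks 1, 2 and 3 the difference was 0.11, 0.085 and 0.088 in control mice and 0.13, 0.096 and 0.095 in swim mice, with the regions apart in every block.

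Stress left no such separation in the ratio over all blocks. In dHC the swim libraries lay below the control libraries in block 1 and above them in block 3. The log2 differences there were -0.030 and 0.047, with 2 libraries on each side. Swim differed from control by -0.0013 on the log2 scale in vHC (exact permutation p = 0.949) and by 0.01 in dHC (exact permutation p = 0.346). The excess of mir-135a-2 over mir-135a-1 passed in none of the 4 comparisons, with adjusted exact permutation p of 0.907 each.

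**Figure D4:**
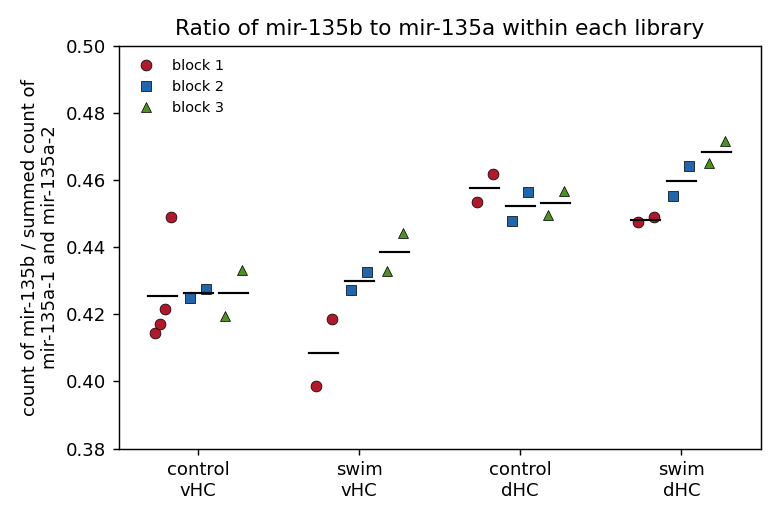
Count of mir-135b divided by the summed count of mir-135a-1 and mir-135a-2 in each library, by group, with the block as colour and shape and black lines at the mean of a block within a group. The dHC libraries lie at 0.447 or above, and the vHC libraries at 0.449 or below. The vertical axis does not start at 0.

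After the mean of each block was subtracted, the miRNA whose level was most like that of the family was mir-154. Spearman's rho over 26 libraries with mir-135a (copies summed) was 0.812 for mir-154, 0.771 for mir-31 and 0.768 for mir-335, out of 399 miRNAs outside the family. For mir-135b it was 0.825 for mir-154, 0.731 for mir-31 and 0.710 for mir-199a. The median rho over those miRNAs was -0.00034 for mir-135a and 0.032 for mir-135b.

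Without the subtraction rho with mir-135a was 0.721 for mir-335, 0.709 for mir-154 and 0.575 for mir-31. With mir-135b it was 0.712 for mir-154, 0.566 for mir-31 and -0.471 for mir-199a. mir-154 differed from block 1 by only -0.09 and -0.20 on the log2 scale in blocks 2 and 3, and did not pass the test for block (adjusted p = 0.104, edgeR). These values share libraries, depth and region and are a description. In swim mice the dHC against vHC values of mir-154, mir-31 and mir-335 were -0.29, -0.99 and -1.03 on the log2 scale, and those of mir-199a-1 and mir-199a-2 were -0.40 each. As these miRNAs were picked over the same libraries with region kept in, these values are given with no test. mir-135a and mir-135b had a rho of 0.980 with each other, with reads in common.

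Other miRNAs that have been studied with serotonin or stress were read from a list of 15 entries, of which 14 passed the filter and mir-96 did not. It held mir-16 (studied with Slc6a4), mir-96 (Htr1b), mir-26a (Htr1a), mir-15a (Fkbp5), mir-18a and mir-124 (the glucocorticoid receptor Nr3c1), mir-34 (the receptor Crhr1) and mir-19b (Adrb1). For stress, 0 of 14 were called in vHC or dHC, and mir-15a in vHC, at a log2 fold change of -0.23, had the only unadjusted p under 0.05 (0.0418, adjusted p = 0.617, edgeR). The list's median was -0.0035 in vHC and -0.05 in dHC on the log2 scale, beside -0.03 and 0.02 for all entries.

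For region the called entries of the list were higher in dHC, where mir-135 was lower, with mir-135 itself called in swim mice only. In control mice 8 of 14 were higher in dHC and 0 lower, where 7.78% of all entries were called higher. The list was chosen with earlier results of these data known and counts copies that share reads. Its counts for region, here and in swim mice, are therefore a description. mir-15a was higher by 1.07 on the log2 scale (adjusted p = 0.00143, edgeR), mir-34c by 1.03 (adjusted p = 0.000432), mir-18a by 0.88 (adjusted p = 0.00668), mir-34b by 0.69 (adjusted p = 0.00110) and mir-16-1 by 0.66 (adjusted p = 2.06e-05), beside mir-16-2 by 0.65, and mir-19b-1 and mir-19b-2 by 0.55 each. The list's median was 0.55, beside 0.0054 for all entries.

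In swim mice 4 of 14 were higher and 0 lower, where 7.56% of all entries were called higher. They were mir-16-1 and mir-16-2 at 0.34 each, mir-15a at 0.75 and mir-34b at 0.50 on the log2 scale, and the list's median was 0.34, beside -0.00019 for all entries. mir-18a (0.65), mir-34c (0.61), mir-19b-1 (0.46) and mir-19b-2 (0.43) had unadjusted p under 0.05 and did not pass. Copies such as mir-16-1 and mir-16-2 share reads.

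Block called 9 of 14 list entries, where 53.1% of all entries were called. mir-15a was lower than block 1 by -1.65 and -1.50 on the log2 scale in blocks 2 and 3, further than any mir-135 entry. mir-34c was higher, by 0.48 and 0.86.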

How the data were processed

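Libraries were made from Trizol RNA with the NEXTflex v3 small RNA kit. Per the labels and the study's methods, the authors trimmed reads with cutadapt, collapsed identical reads with their molecular identifiers, and counted them with Sports (build GRCm38 in the submitters' processing notes), and the deposited table holds their estimated counts, of which 22.7% were not whole for miRNA entries. They were rounded to whole numbers. All 26 columns matched a library, with 0 unmatched.

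Entries with at least 10 counts in enough libraries and 15 in all (filterByExpr) were scaled by TMM and tested with edgeR 4.0.16 (glmQLFit, R 4.3.3) over all 26 libraries, with Benjamini-Hochberg adjustment over 463 entries and a threshold of 0.05. The stress fits carried 2 surrogate variables (sva 3.50.0) and the region fits carried block. Ratios were tested by exact permutation (scipy 1.17.1). DESeq2 1.42.0 served as an alternative. The fit for stress in vHC was also run on simulated counts without region or block differences, and its outcome is not reported here. Members had 137 to 4286 counts per library, and errors are the spread between libraries.

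Besides the members, genes were named by rule: the 3 miRNAs outside the family most correlated with mir-135a and the 3 with mir-135b, and list members with an unadjusted p under 0.05. Members, lists and tests were chosen with earlier results of these data known. Relabelling within blocks and the ratio of mir-135a-2 to mir-135a-1 were added after seeing the data. Hairpin positions come from RefSeq (GRCm38.p6) and neighbouring genes from GENCODE.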

Additional observations from a re-analysis of the deposited data

Results flagged for a closer look

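The ratio of mir-135a-2 to mir-135a-1 in swim dHC library 22, of block 2, was 1.13, above the other 5 swim dHC libraries by a gap that exceeded Dixon's 95% critical value for 6 samples. It was the only such value among 20 tests of the levels and ratios by group, where chance gives about 1 in 20. The library had the lowest mir-135a-1 level of all 26, at 319 CPM.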

How the results depend on the processing

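Of 327 results under another setting with all libraries kept, 268 kept their direction and their side of the threshold, or stayed within the spread or 1.5 times the count. A tested value changed sign in 44, of which 6 were region differences and the others stress or interaction values that passed no test. Values within 1 block, which have no test, also changed sign for stress in dHC and for the ratio under stress. No stress or interaction result passed an adjusted p of 0.05 under any alternative. Without a filter on low counts stress in vHC was -0.0094 for mir-135a-2 and -0.0093 for mir-135b on the log2 scale. Stress in dHC (mir-135a-1, mir-135a-2, mir-135b) was -0.015, -0.020 and -0.016 with no surrogate variables, -0.017, -0.018 and -0.0036 with the intercept alone in the null model, and -0.014, -0.016 and -0.0017 in the permutation tests of log2 CPM. It was -0.0046 and -0.0089 for the mir-135a entries with block in place of surrogate variables, and -0.010 with the copies summed. The interaction was -0.018 and -0.012 for the mir-135a entries with DESeq2 size factors, -0.016 and -0.010 with DESeq2, and -0.035 with the copies summed, where mir-135b was -0.0090. For the 3 entries it was -0.028, -0.022 and -0.0068 with TMMwsp, -0.072, -0.067 and -0.049 with no surrogate variables, -0.25, -0.23 and -0.21 with block, and -0.049, -0.035 and -0.020 with the intercept alone.

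With 2 surrogate variables in place of block, dHC against vHC was 0.12, 0.11 and 0.10 in control mice and 0.17, 0.17 and 0.17 in swim mice. With neither, the swim values were -0.57, -0.57 and -0.45, and in the permutation test across blocks -0.55, -0.55 and -0.44, and neither passed. mir-135b in swim mice was -0.41 with library sizes from the whole table and did not pass (adjusted p = 0.083, edgeR). In control mice mir-135a-2 passed with unrounded counts (-0.30) and in the within-block permutation test (-0.32, exact p = 0.0426 before adjustment, 0.0852 over 4 comparisons). The count of called entries was 67 in control mice and 56 in swim mice with neither covariate, and 59 in swim mice with surrogate variables. The causes were not tested. For the ratio, stress in vHC was 0.0070 against mir-135a-2 alone and -0.059 within block 1, and stress in dHC was -0.030 within block 1 and 0.047 within block 3.

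Leaving out 1 library at a time, stress in vHC ran from -0.036 to 0.12, from -0.046 to 0.10 and from -0.051 to 0.096 on the log2 scale for mir-135a-1, mir-135a-2 and mir-135b, and stress in dHC from -0.035 to 0.093, from -0.041 to 0.092 and from -0.022 to 0.10. The interaction ran from -0.077 to 0.079, from -0.069 to 0.088 and from -0.056 to 0.096. Region in control mice ran from -0.34 to -0.20 for mir-135a-1 and from -0.36 to -0.24 for mir-135a-2, which passed in 1 and 5 of 26 cases. The ratio's stress difference in vHC ran from -0.014 to 0.018. Region in swim mice passed in 26 of 26 cases for each entry, with adjusted p up to 0.0499 for mir-135b (edgeR), and block in 26 of 26. The region difference of the ratio passed in every case, 14 in control and 12 in swim mice.

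No paired analysis was run because the replicate numbers are library numbers that no groups share, and the labels tie no dHC library to a vHC library. The region p-values treat libraries as independent, which does not hold if dHC and vHC libraries came from the same mice. In 12 cases an odd vHC number is followed by an even dHC number of the same stress and block, and these were not taken as pairs because no source used here says that they mark 1 mouse. The family's lowest count, 137, was in the shallowest library. Only the reads that differ between entries inform their ratios.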
